A study of Rattus norvegicus with 232 samples.

Results

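PVG/Seac is an inbred laboratory rat strain, and its brain is represented by 3 untreated animals, labelled replicates 1 to 3, among the 197 animals, 214 libraries and 74 strains of the version 7.1 gene table. The 3 animals were chosen by their strain label alone and were set against 21 animals of 7 other classic inbred strains of sequencing batches 15 to 17. These were BN/NHsdMcwi, FHH/EurMcwi, GK/FarMcwi, LH/MavRrrc, M520/N, MWF/Hsd and WAG/RijCrl, with 3 animals per strain. No PVG animal was in batch 15. The study collected brain transcriptomes of the Hybrid Rat Diversity Panel as a resource on genetic predisposition, so strain is the only difference between the groups that was intended. Each library was made from rRNA-depleted total RNA, labelled as whole brain, of 1 rat that had received no alcohol, drug or behavioural test. For an earlier release the study states that brains were split sagittally and 1 side was sequenced. The series text describes the rats as naive males, and the labels of these 24 animals carry neither sex nor age. Sequencing batches were 16, 17 and 17 for replicates 1, 2 and 3 of PVG, BN, GK and LH, 15, 16 and 17 for FHH, M520 and MWF, and 15, 16 and 16 for WAG.

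PVG is a hooded rat best known from immunology, where crosses between PVG and the DA strain have been used to map genes for experimental arthritis, nerve injury responses and brain inflammation. The rat major histocompatibility complex (MHC) is called RT1. Its class I genes encode the chains that present peptides to cytotoxic T cells, its class II genes present peptides to helper T cells, and their number and sequence vary between inbred strains. Glutathione S-transferases join glutathione to reactive compounds and so help to clear oxidised lipids and foreign chemicals.

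In PVG brains a small number of genes lay beyond every animal of the other strains. Among genes with settled symbols the widest gaps were on the low side and belonged to Gsta6, an alpha-class glutathione S-transferase, Slc38a8, a sodium-coupled amino acid transporter, and Ddn, which encodes the dendrite protein dendrin. On the high side the 3 PVG animals stood above the rest in the class I gene RT1-S3, in its neighbours RT1-CE10 and RT1-CE16, and in Mical1, Thsd1 and Fcrl2. These are values of RefSeq genes. The separations of Slc38a8 and RT1-CE16 were not seen on the Ensembl or reconstructed gene models. Those of Ddn, RT1-S3, Mical1 and Thsd1 were seen on the Ensembl model but not on the reconstructed one. Values are the deposited log2 expression levels, on which a difference of 1 is a factor of 2. How these values were transformed is not given in the sources used here. A regularised log, described for an earlier release, would understate fold changes of weakly expressed genes. Read depth is unknown because no counts were used here.

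All 3 PVG animals lay outside the 21 others in 148 of 20859 genes. They were above in 51 genes, or 0.244% of the table, and below in 97, or 0.465%. The same count was 281 for BN, 305 for GK, 197 for LH, 109 for FHH, 101 for MWF, 85 for M520 and 30 for WAG, so that 3 of the other 7 strains had more such genes than PVG. PVG, BN, GK and LH had no animal in batch 15, while FHH, M520, MWF and WAG each had one. Strain and batch layout therefore cannot be told apart in these counts. All animals found nearer another strain than their own, described below, were of M520, MWF or WAG. More genes lay below than above in PVG, GK and BN, whereas FHH, M520, MWF, LH and WAG had more genes above than below. The number depended on having 3 animals, being 514, 274 and 393 without PVG replicate 1, 2 or 3.

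**Figure D1:**
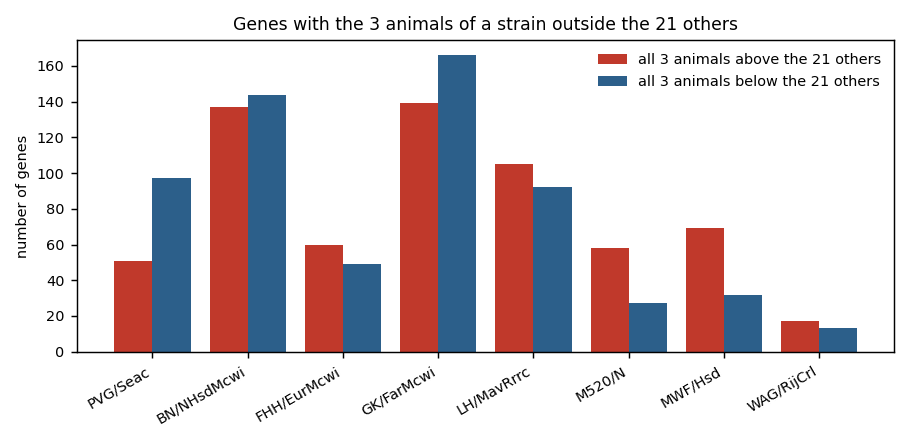
Number of genes, of the 20859 tested, in which all 3 animals of a strain lay above (one bar) or below (the other bar) the 21 animals of the other 7 strains. PVG had 51 genes above and 97 below, against 139 and 166 for GK and 17 and 13 for WAG. Batch layout differs between strains, with a batch 15 animal in FHH, M520, MWF and WAG only.

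In limma's test of PVG against the mean of the 7 strain means, with Benjamini-Hochberg adjustment at 5%, 235 genes were higher in PVG (1.13% of the table) and 334 were lower (1.6%). These calls rest on the spread within strains: with the 21 other animals as 1 group, so that differences among their strains count as error, 26 genes were higher and 35 lower. Without PVG replicate 1, 2 or 3 the total of 569 became 314, 225 and 262. Of the 148 genes that lay outside, 113 passed this test, 43 of them higher and 70 lower, and 456 further genes passed it while PVG values overlapped those of another strain. Being outside and passing the test use the same values, so the test is no independent support for the genes chosen by position. Against single strains, 750 genes differed for BN (3.6%), 740 for LH (3.55%), 661 for GK (3.17%), 611 for MWF (2.93%), 539 for FHH (2.58%), 504 for M520 (2.42%) and 215 for WAG (1.03%). The order of strains depended on the model, since adding sequencing batch to the fit gave 1167 for BN, 1669 for LH, 1239 for GK, 624 for MWF, 731 for FHH, 649 for M520 and 531 for WAG. In the 148 genes the comparisons without the covariate passed for 74, 77, 70, 80, 68, 72 and 42 genes in the same order of strains. A difference from all 7 strains, each tested on its own, was found for 18 genes of the table, and all 18 lay outside. Of the 113 members that passed, 55 kept the call in all 24 fits that left out 1 animal, and 40, 47 and 46 lost it without PVG replicate 1, 2 or 3.

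**Figure D2:**
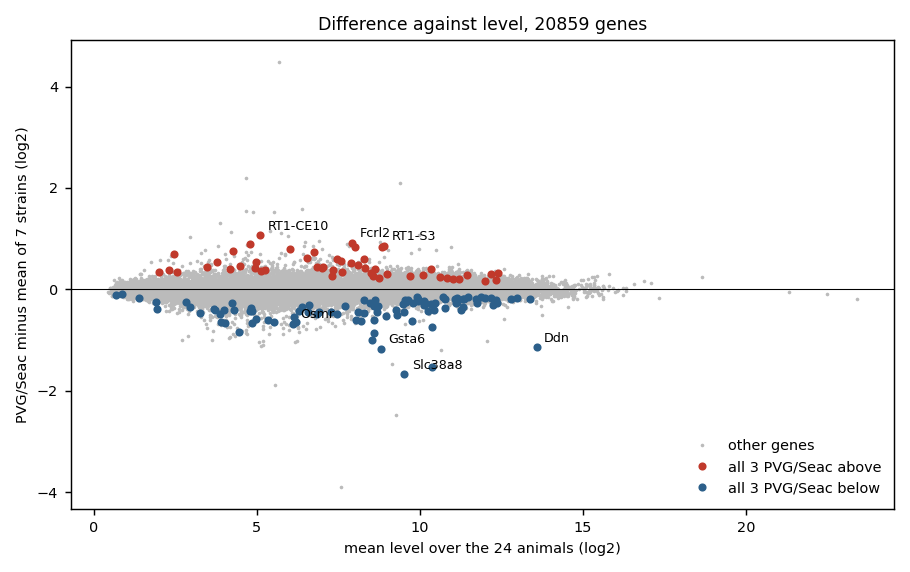
Difference between PVG and the mean of the 7 other strains (log2, y axis) against the mean level over the 24 animals (log2, x axis) for all 20859 genes, with the genes lying outside marked. Gsta6, Slc38a8 and Ddn lie between -1.14 and -1.67, and RT1-S3 and RT1-CE10 at 0.86 and 1.07.

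Most separations were narrow. The gap between the nearest PVG animal and the nearest other animal had a median of 0.043 over the 148 genes and was above 0.2 in 19 of them, above 0.1 in 37 and above 0.05 in 68. At the edge of the rule, Rhou, Abca14 and LOC100365450 were inside by 0.00053, 0.0014 and 0.0015, while Epm2aip1, Znfx1 and Ahsa1 missed it by 0.000023, 0.00011 and 0.00022. The 3 PVG animals resembled each other more in these genes than elsewhere, with a median SD of 0.057 against 0.107 over all genes, which the rule favours. Replicates 1, 2 and 3 were the PVG animal nearest the others in 58, 42 and 48 genes. The nearest animal of another strain was most often a WAG rat, in 32 genes, and in 16 of these it was WAG replicate 2.

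The PVG libraries stood with their own strain. Library medians of the 24 animals spanned 8.27 to 8.37. Over all genes each PVG animal correlated best with the other PVG animals (r of 0.476, 0.526 and 0.337 for deviations from the mean of the 24 animals), but 5 of the 24 animals, M520 replicate 1, MWF replicates 1 and 3 and WAG replicates 1 and 2, were nearer another strain than their own. Without these 5 animals 248 genes lay outside and 613 passed the limma test. WAG replicates 1 and 2 correlated negatively with their own strain (r of -0.153 and -0.0644). The strain nearest WAG replicate 2 was PVG, at r = 0.0787. Limma's interaction test of the PVG difference between batches 16 and 17 sets 1 PVG animal against 2, so that passing in no gene (0%, lowest adjusted p = 0.3, 721 genes at an unadjusted p under 0.05) does not show that the batches gave like differences. Batch 17 alone, with 2 PVG animals, no WAG animal and 4 residual degrees of freedom, gave 147 genes higher and 197 lower. Gsta6, Slc38a8 and Ddn passed there with differences of -0.999, -1.87 and -1.05. They had been named for their gaps in animals that include these, so this is no separate check of batch. Batch 16 holds 1 PVG animal and takes its spread from WAG replicates 2 and 3 alone, so the differences of -1.42, -1.43 and -1.53 for these genes there are given as values.

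The tissue was brain by its markers, and no member of the cell type lists passed the test apart from 1 blood gene. At the shares over all genes, 1.13% higher and 1.6% lower, lists of this size would hold few calls. Neuronal markers averaged 14.28 to 14.36 in the PVG animals and 14.21 to 14.38 in the others, and oligodendrocyte markers 14.15 to 14.33 and 14.11 to 14.43. Hbb-b1, a beta-globin of red cells, was higher in PVG by 0.71 ± 0.13 (SE, n = 3 against 21, limma adjusted p = 0.00233), with 6 other blood genes not passing. The 7 measured blood genes had a median difference of -0.16, and 2 of them, Hbb-b1 included, were positive. All 8 choroid plexus markers had a positive difference (median 0.19) and none passed. In whole tissue, fewer cells of a type and less RNA per cell cannot be told apart.

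The glutathione gene Gsta6 gave the widest gap of the table's 148. PVG replicates 1, 2 and 3 measured 7.50, 7.97 and 7.92, and the 21 other animals ran from 8.75 through a median of 8.94 to 9.32. PVG was lower by 1.17 ± 0.091 (SE, limma adjusted p = 1.42e-07), a factor of 0.444, with an empty interval of 0.79 between the groups. Against single strains the difference ran from -1.03 for WAG to -1.29 for FHH. In the deposited version 7.1 annotation of reconstructed transcripts, whose genome build is not named, Gsta6 spans chr9:23741154-23813132, minus strand. Of its 3 RefSeq transcripts 2 also lay outside, XM_006244656.4 with a difference of -2.92 (limma adjusted p = 2.72e-06) and XM_039084065.1 with -2.55 (adjusted p = 2.74e-06), while XM_039084066.1 differed by -2.25 and did not pass (adjusted p = 0.156). The Ensembl gene gave -1.18 (adjusted p = 5.31e-07) and the reconstructed gene -1.88 (adjusted p = 2.12e-05), both outside. Gsta6 has close relatives in its class, and how reads were divided among them was not tested.

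Of 33 measured glutathione S-transferases and glutathione enzymes of 35 listed, Gstm4 and Gpx3 were higher, Gsta6 and Gclc were lower and 29 did not pass, beside 1.13% higher and 1.6% lower over all genes, with a median difference of 0.038 beside -0.0062 over all genes. Gstm4, a mu-class transferase, measured 9.66, 9.35 and 9.36 in PVG against 8.45 to 9.52 in the others (difference 0.64 ± 0.074, limma adjusted p = 2.44e-05), and the groups overlapped. Gsta4, a gene mapped in crosses of DA and PVG, measured 9.86, 9.76 and 9.76 in PVG against 9.21 to 10.39, with a difference of 0.04 ± 0.092 that did not pass (limma adjusted p = 0.882). Gclc, the catalytic subunit of glutathione synthesis, was lower by 0.23 ± 0.058 (adjusted p = 0.0351). Gclc lost the call without any 1 PVG replicate (adjusted p = 0.155, 0.258 and 0.0818) and without GK replicate 2 (0.0507). The call of Gpx3 (0.34 ± 0.090, adjusted p = 0.0412) held in 10 of the 24 fits that left out 1 animal, its highest adjusted p being 0.311 without PVG replicate 3.

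**Figure D3:**
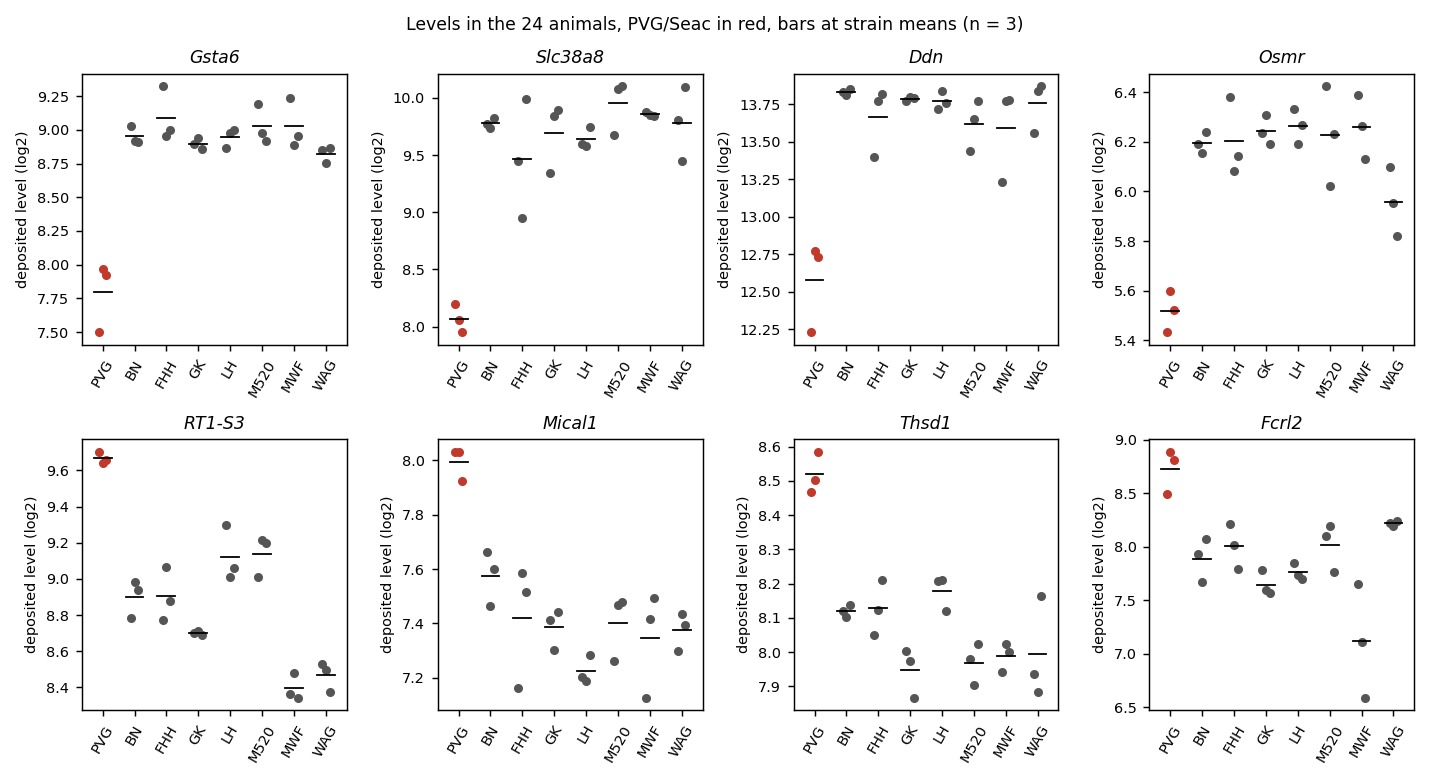
Log2 expression level (y axis) of Gsta6, Slc38a8, Ddn, Osmr, RT1-S3, Mical1, Thsd1 and Fcrl2 in each of the 24 animals, grouped by strain (x axis), 1 point per animal and a bar at the strain mean. In the first 4 genes the 3 PVG points lie below all 21 others and in the last 4 above them.

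Slc38a8, a transporter of the SLC38 glutamine family, had the second widest gap. The PVG animals measured 8.19, 8.06 and 7.95 and the others 8.95 to 10.1 with a median of 9.81. The difference of -1.67 ± 0.15 passed (limma adjusted p = 8.32e-07) and lay between -1.40 for FHH and -1.89 for M520. This separation was not seen on other gene models. The version 6 Ensembl gene, in 23 of the 24 animals, gave -0.15 (limma adjusted p = 0.417) and the 2 reconstructed features of this name, in 21 of them, -0.40 and 0.33 (adjusted p = 0.244 and 0.918), and in none did the PVG animals lie outside. In the deposited annotation, features named Slc38a8 span chr19:47522781-47561443, minus strand. Positions from that annotation, here and for other genes, are spans of reconstructed features and not of RefSeq genes.

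Ddn encodes dendrin, a proline-rich protein of dendrites whose messenger RNA is carried into them. It measured 12.23, 12.77 and 12.73 in PVG and 13.23 to 13.87, with a median of 13.77, in the others. PVG was lower by 1.14 ± 0.11 (limma adjusted p = 2.97e-06), and the highest PVG value was 0.46 below the lowest other. The strain differences lay between -1.02 for MWF and -1.25 for BN. The gene lies on chr7:129953317-129957299, minus strand, in the deposited annotation; its transcript NM_030993.2 gave a difference of -2.16 (limma adjusted p = 3.31e-05) and the Ensembl gene one of -1.19 (adjusted p = 1.4e-06), and both lay outside. The reconstructed gene gave -0.27 (adjusted p = 0.66) and did not lie outside. In both Gsta6 and Ddn replicate 1, the PVG animal of batch 16, was the lowest of the 3.

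Several members on either side encode proteins known from immune cells. They were picked from the members by eye with their values known, and no fixed list stands behind them. Among those below, Cd48, a SLAM-family ligand of leukocytes, measured 8.53, 8.51 and 8.47 against 8.71 to 9.42 with a median of 9.05 (difference -0.53 ± 0.091, limma adjusted p = 0.00171). Osmr, the oncostatin M receptor, measured 5.43, 5.60 and 5.52 against 5.82 to 6.42 (difference -0.68 ± 0.077, adjusted p = 2.02e-05). Mr1, a class I-like molecule that presents vitamin B metabolites to T cells, measured 5.59, 5.54 and 5.84 against 6.03 to 6.49 (difference -0.64 ± 0.073, adjusted p = 2.02e-05). The calls of these 3 genes held in all 24 fits that left out 1 animal. Those fits use the values by which the genes were chosen and are no separate support. F11r, a junctional adhesion molecule that neighbours Cd48, and Ptgr1, which inactivates leukotriene B4, were also below every other animal, by 0.44 ± 0.065 and 0.55 ± 0.076 from the mean of the strains (adjusted p = 0.00031 and 0.000193).

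Among those above, Fcrl2, an Fc receptor-like molecule, measured 8.49, 8.89 and 8.81 against 6.59 to 8.24 with a median of 7.80 (difference 0.92 ± 0.14, limma adjusted p = 0.000478). Lbp, which binds bacterial lipopolysaccharide, measured 4.87, 4.97 and 4.96 against 3.87 to 4.80 (difference 0.76 ± 0.10, adjusted p = 0.000153). Gsdmd, the pore-forming protein of pyroptosis, was higher by 0.38 ± 0.080 (adjusted p = 0.00855) and lost the call without PVG replicate 2 or 3 (0.0848 and 0.0624). The macrophage gene Cd68 lay above all others at 5.64, 5.52 and 5.65 against 4.85 to 5.51 and did not pass (adjusted p = 0.0573). Ncf1, the p47phox subunit of the phagocyte NADPH oxidase, measured 7.96, 7.81 and 7.98 against 7.39 to 7.79 (difference 0.34 ± 0.070, adjusted p = 0.00849), with a gap of 0.015. Its call was lost without PVG replicate 1 or 3 (adjusted p = 0.0792 and 0.0918). Ncf1 was the one gene that passed (higher, beside 1.13% of all genes) of 9 measured from a list of genes known from DA crosses, chiefly with PVG, and Vav1, Ciita and Zeb1 differed by -0.11, -0.18 and -0.13 (adjusted p = 0.646, 0.405 and 0.461). None of the 8 microglial markers passed, their median difference was -0.17, and their mean level was 9.40 to 9.45 in PVG and 9.39 to 9.81 in the others. Their part in these results was not tested.

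Class I genes of RT1 moved in both directions. Of 39 measured genes of class I and antigen processing (48 listed), 6 were higher in PVG, 6 were lower and 27 did not pass, with a median difference of 0.020. Over all genes 1.13% were higher and 1.6% lower, with a median of -0.0062. The higher ones were RT1-CE10, RT1-CE16, RT1-S3, RT1-T24-1, RT1-T24-3 and Tapbp, the loading factor tapasin, and the lower ones RT1-CE1, RT1-CE3, RT1-CE4, RT1-CE15, RT1-N2 and RT1-T24-4. Class I copies are close relatives, so each value is uncertain where reads could go to another copy, which was not tested. The reference behind these values is not named in the sources used here. RT1-S3, RT1-CE10 and RT1-CE16 kept their calls in all 24 fits that left out 1 animal. The other 9 lost it without at least 1 PVG replicate, RT1-CE1 without replicate 3, RT1-CE3 and RT1-CE4 without 2 or 3, RT1-T24-3 and Tapbp without 1 or 3, RT1-T24-4 without 1 or 2, and RT1-CE15, RT1-N2 and RT1-T24-1 without any 1 of them, with adjusted p from 0.0511 for Tapbp to 0.283 for RT1-CE3. RT1-T24-1 was called in 15 and RT1-T24-4 in 19 of the 24 fits. RT1-S3, RT1-CE10 and RT1-CE16 are the ones that lay outside, and these fits use the same values. Keeping the call is therefore no separate support for them.

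RT1-S3 measured 9.70, 9.64 and 9.66 in PVG, while the other animals ran from 8.34 to 9.30 with a median of 8.78. The difference was 0.86 ± 0.068 (limma adjusted p = 1.42e-07), a factor of 1.82, and it passed against each of the 7 strains, from 0.53 for M520 to 1.27 for MWF. Both of its RefSeq transcripts lay outside, with differences of 1.03 and 1.46 (limma adjusted p = 0.00195 and 5.80e-05). The Ensembl gene gave 0.87 (adjusted p = 1.05e-06) and lay outside, while the reconstructed gene gave 0.32 (adjusted p = 0.469) and did not. RT1-CE10 measured 6.23, 6.03 and 5.85 against 4.03 to 5.59 (difference 1.07 ± 0.17, adjusted p = 0.00103), and passed against 5 strains but not against LH or MWF (adjusted p = 0.0904 and 0.106). RT1-CE16 measured 9.58, 9.58 and 9.54 against 7.79 to 9.41 (difference 0.84 ± 0.15, adjusted p = 0.00182). It passed against LH, M520, MWF and WAG but not against BN, FHH or GK, which differed from PVG by 0.43, 0.47 and 0.30. On other gene models RT1-CE16 did not lie outside: its Ensembl gene gave 0.44 (adjusted p = 0.0343) and its reconstructed gene 0.066 (adjusted p = 0.943).

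The genes called lower overlapped other strains. RT1-CE4 measured 6.90, 6.63 and 6.64 against 6.66 to 7.98 (difference -0.67 ± 0.13, limma adjusted p = 0.00518). RT1-CE15 measured 5.20, 5.39 and 5.35 against 5.35 to 7.28 (difference -0.68 ± 0.17, adjusted p = 0.0318). RT1-CE1 stood at -0.64 ± 0.13 from the mean of the strains (adjusted p = 0.00585), yet PVG was above BN and FHH by 0.35 and 0.68 and below LH by 1.47. The classical genes RT1-A1 and RT1-A2 had differences of 0.31 and 0.47 that did not pass (adjusted p = 0.143 and 0.0726), and B2m, the shared light chain, one of -0.10 (adjusted p = 0.599). None of the 12 measured class II genes and regulators passed; their median difference was -0.16, and the largest was that of RT1-Ba at -0.45 (adjusted p = 0.081). Ifi27 was higher (0.41, adjusted p = 0.0381) and Ifit1 lower (-0.78, adjusted p = 0.00142) among 47 interferon-stimulated genes, with both overlapping the other strains. Over all genes 1.13% were higher and 1.6% lower, so these counts are near the background. Ifi27 was called in 15 of the 24 fits, its highest adjusted p being 0.245 without PVG replicate 1.

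**Figure D4:**
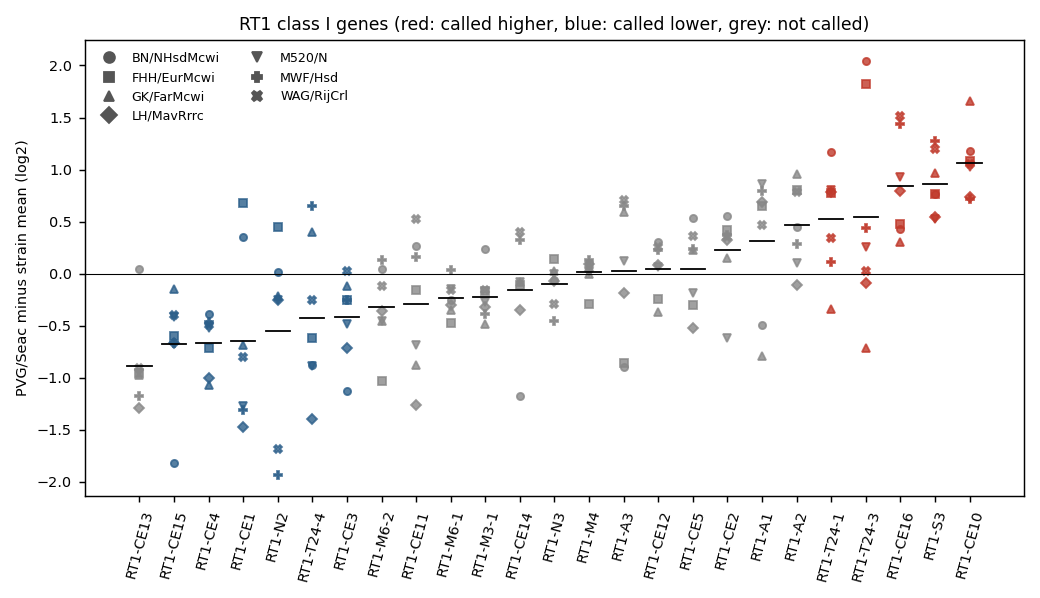
Difference between PVG and each of the 7 other strains (log2, 1 point per strain) for the class I genes of RT1, with the mean over strains marked. RT1-S3, RT1-CE10 and RT1-CE16 are positive against all 7 strains, from 0.53, 0.72 and 0.30 up, and RT1-CE4 and RT1-CE15 are negative against all 7.

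Promoter sequences are given for 5 class I genes because they share a chromosome region and differed from the other strains in opposite directions. Each run holds 250 bases before and 50 after the RefSeq start on GRCr8 and is written in the gene's direction, from the BN reference and not from PVG. Capitals mark matches, on either strand, to GAANNGAAA, the core of an interferon-response element, and to GGGGANNCC, a loose core of the enhancer A site that NF-kappaB binds. The letters of the latter were chosen after the matches of a longer, stricter form had been seen, which had no match in RT1-CE3 and occurred in fewer promoters. Where printed, the enhancer A match is an overlapping pair, 1 on each strand, and it did not overlap the interferon core. RT1-S3 (chr20:2675278-2675577, plus strand), RT1-CE10 (chr20:3384930-3385229, minus strand) and RT1-CE16 (chr20:3265394-3265693, minus strand) were higher in PVG, and RT1-CE4 (chr20:3509107-3509406, minus strand) and RT1-CE15 (chr20:3283721-3284020, minus strand) were lower.
RT1-S3: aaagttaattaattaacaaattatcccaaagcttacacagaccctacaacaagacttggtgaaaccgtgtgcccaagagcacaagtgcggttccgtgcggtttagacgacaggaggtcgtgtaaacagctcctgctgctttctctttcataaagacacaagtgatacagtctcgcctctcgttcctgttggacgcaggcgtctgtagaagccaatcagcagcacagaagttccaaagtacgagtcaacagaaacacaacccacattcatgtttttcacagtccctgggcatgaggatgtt
RT1-CE10: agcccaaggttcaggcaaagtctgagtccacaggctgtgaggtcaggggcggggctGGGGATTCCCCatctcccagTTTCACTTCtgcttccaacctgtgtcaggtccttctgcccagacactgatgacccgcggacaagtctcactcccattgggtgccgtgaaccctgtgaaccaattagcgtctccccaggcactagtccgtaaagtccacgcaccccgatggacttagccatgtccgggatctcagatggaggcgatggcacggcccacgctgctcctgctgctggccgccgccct
RT1-CE16: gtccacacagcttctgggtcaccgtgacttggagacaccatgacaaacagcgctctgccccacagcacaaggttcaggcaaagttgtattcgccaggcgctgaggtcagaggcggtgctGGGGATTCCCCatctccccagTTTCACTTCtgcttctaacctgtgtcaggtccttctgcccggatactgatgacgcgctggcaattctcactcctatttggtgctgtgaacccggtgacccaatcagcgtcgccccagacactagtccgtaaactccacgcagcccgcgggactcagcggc
RT1-CE4: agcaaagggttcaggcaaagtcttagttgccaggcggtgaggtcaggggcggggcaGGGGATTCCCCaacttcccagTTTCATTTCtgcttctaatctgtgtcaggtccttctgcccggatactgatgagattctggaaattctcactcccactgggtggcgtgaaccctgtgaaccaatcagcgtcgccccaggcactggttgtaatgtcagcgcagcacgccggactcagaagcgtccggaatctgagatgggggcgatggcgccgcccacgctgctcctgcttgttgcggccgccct
RT1-CE15: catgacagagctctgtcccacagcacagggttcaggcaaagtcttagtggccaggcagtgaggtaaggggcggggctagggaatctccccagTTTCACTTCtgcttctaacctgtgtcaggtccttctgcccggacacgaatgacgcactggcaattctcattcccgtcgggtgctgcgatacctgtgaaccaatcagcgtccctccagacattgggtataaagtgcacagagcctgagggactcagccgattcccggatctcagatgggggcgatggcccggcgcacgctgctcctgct
The interferon core was found in RT1-CE10 and RT1-CE16 among the higher genes and in RT1-CE3, RT1-CE4, RT1-CE15 and RT1-N2 among the lower ones, and in 8.54% of 33469 RefSeq promoters. Enhancer A was found in RT1-CE10 and RT1-CE16 and in RT1-CE3 and RT1-CE4, and in 6.16% of promoters. Neither set of letters is in the RT1-S3, RT1-CE1 and RT1-T24 windows, so higher and lower genes both include some with matches and some without.

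Mical1, a monooxygenase that oxidises actin filaments, also lies on chromosome 20 (chr20:44974126-44986121, plus strand, in the deposited annotation). It measured 8.03, 8.03 and 7.92 in PVG against 7.13 to 7.66 (difference 0.61 ± 0.080, limma adjusted p = 0.000114). The Ensembl gene gave 0.61 (adjusted p = 0.000116) and lay outside, but the reconstructed gene gave -0.17 (adjusted p = 0.71), with the PVG animals below the others. Its neighbour Fig4, a lipid phosphatase of endosomes, lay below all others with a difference of -0.19 ± 0.045 (adjusted p = 0.021), a call lost without PVG replicate 1 or 2 (0.16 and 0.182). Thsd1, an adhesion protein of endothelium (chr16:69771408-69834789, minus strand), measured 8.47, 8.50 and 8.59 against 7.87 to 8.21 (difference 0.47 ± 0.057, adjusted p = 3.83e-05). Its Ensembl gene gave 0.48 (adjusted p = 5.9e-05) and lay outside, and its reconstructed gene 0.15 (adjusted p = 0.783) and did not. The 8 endothelial markers, none of which passed, averaged 9.31 to 9.45 in PVG and 9.24 to 9.46 in the others. Srarp, a steroid receptor associated protein, measured 6.98, 7.06 and 7.18 against 6.11 to 6.68 (difference 0.62 ± 0.083, adjusted p = 0.000134).

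The high side also held enzymes and a signalling ligand. Arsb, the lysosomal arylsulfatase B, measured 12.76, 12.67 and 12.65 against 12.19 to 12.56 (difference 0.32 ± 0.047, limma adjusted p = 0.000362). At the transcript level this lay in NM_033443.1, which was outside with a difference of 0.88 (adjusted p = 0.00166), and its other transcripts were not outside. Apobec1, the editing deaminase of apolipoprotein B messenger RNA, and Wnt10b, a secreted Wnt ligand, were higher by 0.79 ± 0.10 and 0.53 ± 0.085 (adjusted p = 8.73e-05 and 0.000752). Apobec1 went the other way on the other gene models, its Ensembl gene being lower in PVG by 0.34 (adjusted p = 0.0331) and its 2 reconstructed features at -0.37 and -0.75 (adjusted p = 0.671 and 0.237), so the direction depends on the model. Pcdhga9, one of the clustered gamma protocadherins with near-identical copies, was higher by 0.43 ± 0.077 (adjusted p = 0.00255). Arsb, Apobec1, Wnt10b and Pcdhga9, with Morn1 (0.51, adjusted p = 0.00039), kept their calls in the RefSeq gene table whichever animal was left out. Those fits use the values that put these genes outside, so they are no separate support.

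Other genes above the 21 animals had calls that did not hold for every animal left out. These were Srrt and Bcor, which act in RNA processing and in repression by BCL6, Sipa1l2, a Rap regulator, and Ncs1, a calcium sensor. With them were Pacsin2, a membrane-bending protein, Pfkfb3, a regulator of glycolysis, Setd4, and Mfhas1. Their differences ranged from 0.20 for Mfhas1 and Pacsin2 to 0.39 for Setd4, with limma adjusted p from 0.00581 for Pfkfb3 to 0.0412 for Pacsin2. Sipa1l2, Ncs1 and Setd4 lost the call without any 1 PVG replicate, and Bcor and Pfkfb3 without replicate 1 or 2. Srrt was called in 17, Mfhas1 in 11 and Pacsin2 in 9 of the 24 fits that left out 1 animal; their highest adjusted p were 0.24 and 0.231 without PVG replicate 2 and 0.291 without PVG replicate 3.

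A receptor and a channel of neurons were among the genes below. Npy1r, the Y1 receptor of neuropeptide Y, measured 9.10, 8.89 and 8.79 in PVG against 9.12 to 9.56 (difference -0.41 ± 0.089, limma adjusted p = 0.0127). It was the one called gene of 55 measured neuropeptides and receptors, a share near the 1.6% lower over all genes, its gap was 0.022, and it lost the call without PVG replicate 2 or 3 (0.118 and 0.15). Kcnc2, the Kv3.2 potassium channel of fast-firing interneurons, was lower by 0.28 ± 0.058 (adjusted p = 0.00906), and lost the call without replicate 2 or 3 (0.0522 and 0.111). Cript, a partner of the scaffold PSD-95, and Shisa9, an auxiliary subunit of AMPA receptors, were lower by 0.29 and 0.27 (adjusted p = 0.037 and 0.0151) and lost the call without any 1 PVG replicate. For Cript the call also went without GK replicate 1 or 2 and without LH replicate 2 or 3. No call fell among 23 GABA-A and glycine receptor subunits (median -0.14), 26 glutamate receptor subunits (median 0.024) or 57 monoamine and acetylcholine genes (median 0.019). Over all genes 1.13% were higher and 1.6% lower, so the absence of calls in each of these lists is near the background.

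Further genes below differed in whether their calls held with 1 animal left out. Mob1a, a Hippo pathway co-activator, measured 9.86, 9.86 and 9.97 against 10.1 to 10.52 (difference -0.42 ± 0.069, limma adjusted p = 0.00102). Tubgcp4, of the gamma-tubulin complex, measured 9.89, 9.95 and 9.91 against 10.05 to 10.33 (difference -0.27 ± 0.047, adjusted p = 0.00215). Gins2, of the replicative helicase, and Scml4, a Polycomb-like protein, were lower by 0.63 ± 0.10 and 0.48 ± 0.065 (adjusted p = 0.000882 and 0.000144). Gins2 was not separated on other gene models, its Ensembl gene being at -0.038 and its reconstructed gene at -0.22 (adjusted p = 0.924 and 0.929). These 4 genes, with Fam149a (-0.45 ± 0.064, adjusted p = 0.000263), kept their calls in every fit of the RefSeq gene table that left out 1 animal. Such fits use the values that put the genes outside and are no separate support. Prkcq, protein kinase C theta, was lower by 0.26 ± 0.055 (adjusted p = 0.0109) but lost the call without replicate 1 or 2 (0.0608 and 0.141), and Zfp317 by 0.42 ± 0.096 (adjusted p = 0.0205), losing it without any 1 PVG replicate.

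Zfp717, a zinc finger gene, measured 10.98, 11.02 and 11.03 in PVG against 11.22 to 11.55 (difference -0.34 ± 0.062, limma adjusted p = 0.00246). Its Ensembl gene gave -0.35 (adjusted p = 0.00437) and lay outside, and its reconstructed gene -0.14 (adjusted p = 0.813) and did not. Its transcript XR_005487989.1 lay above all other animals instead, with a difference of 1.18 (adjusted p = 0.00442), and none of its other transcripts passed. Among further members, picked by eye with their values known and with no list behind them, Ehhadh of the peroxisome, Fabp4, a fatty acid carrier, and Pla2g4a, which frees arachidonic acid, were lower by 0.44, 0.67 and 0.49 (adjusted p = 0.00354, 0.0031 and 0.00281). Of these Pla2g4a lost the call without PVG replicate 2 (0.0552). In the list of 39 drug and lipid metabolising enzymes 3 passed (beside 1.6% lower over all genes), all lower and all overlapping other strains, namely Nqo2, Acsm5 and Aldh1a2, by 0.61, 0.66 and 0.30 (adjusted p = 0.000555, 0.0042 and 0.0381). The call of Aldh1a2 was lost without any 1 PVG replicate, without BN replicate 1 and without GK replicate 1 or 2.

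Uncharacterised loci were among the best separated members. Of the 148 genes 41 carry provisional symbols. The share of such symbols over all genes was not worked out, so this count is no result about the members. LOC102552179, LOC108349628 and LOC120103072 lay below with gaps of 0.50, 0.46 and 0.48, and differences of -0.75, -1.01 and -0.85 (limma adjusted p = 2.18e-06, 1.42e-07 and 0.000107), and LOC103691165 with a gap of 0.21 and a difference of -0.62 (adjusted p = 1.28e-06). On the high side LOC100361025, RGD1304622 and LOC120098219 had gaps of 0.38, 0.23 and 0.22 and differences of 0.84, 0.60 and 0.53 (adjusted p = 0.00103, 0.00109 and 0.000409). Of 123 members matched to RefSeq, 89.43% were protein coding, beside 86.05% of all matched genes.

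Genes known from the coat or from another PVG line were not among the members. C6, the complement component missing in a known PVG line, measured 4.44, 4.31 and 3.86 against 4.11 to 5.10 (difference -0.36, limma adjusted p = 0.201). No gene passed among 35 complement genes, 7 C-type lectins or 16 coat colour loci measured. Over all genes 1.13% were higher and 1.6% lower, so the absence of calls is near the background. Clec4b2, Clec4d and Clec4e of the lectins and Asip of the coat loci were not measured. Kit, the receptor gene at the rat hooded locus, measured 11.67, 11.79 and 11.85 against 11.51 to 11.96 (difference -0.01, adjusted p = 0.958).

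Members were set beside the genome and the other gene models. On GRCr8 123 members could be placed, and 27 of these (22.0%) had another member within 1 Mb, beside 14.6% of all placed genes with a member that near. The 12 resulting groups were small. The largest held RT1-S3, RT1-CE16, RT1-CE10 and the choline transporter-like gene Slc44a4, all above, on chromosome 20. A group on chromosome 13 held Mr1, RGD1304622 and Fam163a, and the pair F11r and Cd48 lay on the same chromosome and was below. Of 105 members matched to 1 version 6 Ensembl gene, 103 had the same sign, 75 lay outside on the same side and 63 passed in the same direction. Of 105 with a reconstructed gene of the same name, 56 had a feature outside on the same side and 14 one that passed, while in 4 every feature had the opposite sign.

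The other 66 strains of the table, 17 classic, 30 HXB/BXH and 19 FXLE/LEXF recombinant strains, show where else in the table such values occur. A strain was counted as reaching PVG when its mean, in 5 strains the value of 1 animal, was at or past the PVG animal nearest the others. No strain reached PVG in 35 members, 1 to 5 strains did in 73 and 6 to 32 in 40, with a median of 2. PVG had the most extreme of 74 strain means in 71 members. In 6 members, Gsta6, Ddn, LOC102552179, LOC102555574 and Tubgcp4 below and Slc25a32 above, not 1 of the other 173 animals reached it either. Slc25a32, a mitochondrial folate carrier, did not pass in the 24 animals (difference 0.32, limma adjusted p = 0.12). Of the 190 libraries of these strains 18, from 6 strains, are of the batches compared and the rest of other batches, so the counts describe the table and were not tested.

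Gsta6 means of the other 66 strains spanned 8.38 to 9.24 beside 7.80 for PVG, and Ddn means 13.40 to 14.07 beside 12.58. For Slc38a8, SR/JrHsd had a mean of 8.11 and was the one strain to reach PVG. FXLE/LEXF strains fell on both sides of a gap in this gene, 10 with means up to 8.91 and 9 from 9.76 up, while the parental strains F344/Stm and LE/Stm had 9.46 (3 animals) and 9.58 (1 animal). RT1-S3 was nearest to PVG in LE/Stm, where the 1 animal measured 9.63 beside a PVG mean of 9.67, and 2 of the 173 animals reached it. RT1-CE10 was reached by 5 strains, BDIX/NemOdaMcwi, LE/Stm (1 animal) and 3 of HXB/BXH, Mical1 by BDIX/NemOdaMcwi and COP/CrCrl, and Ncf1 by 6 strains, ACI/SegHsd and COP/CrCrl among them. Fcrl2 was shared most widely of the genes plotted, with 19 strains at or above the lowest PVG animal. Osmr was reached by no strain and by 1 animal.

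**Figure D5:**
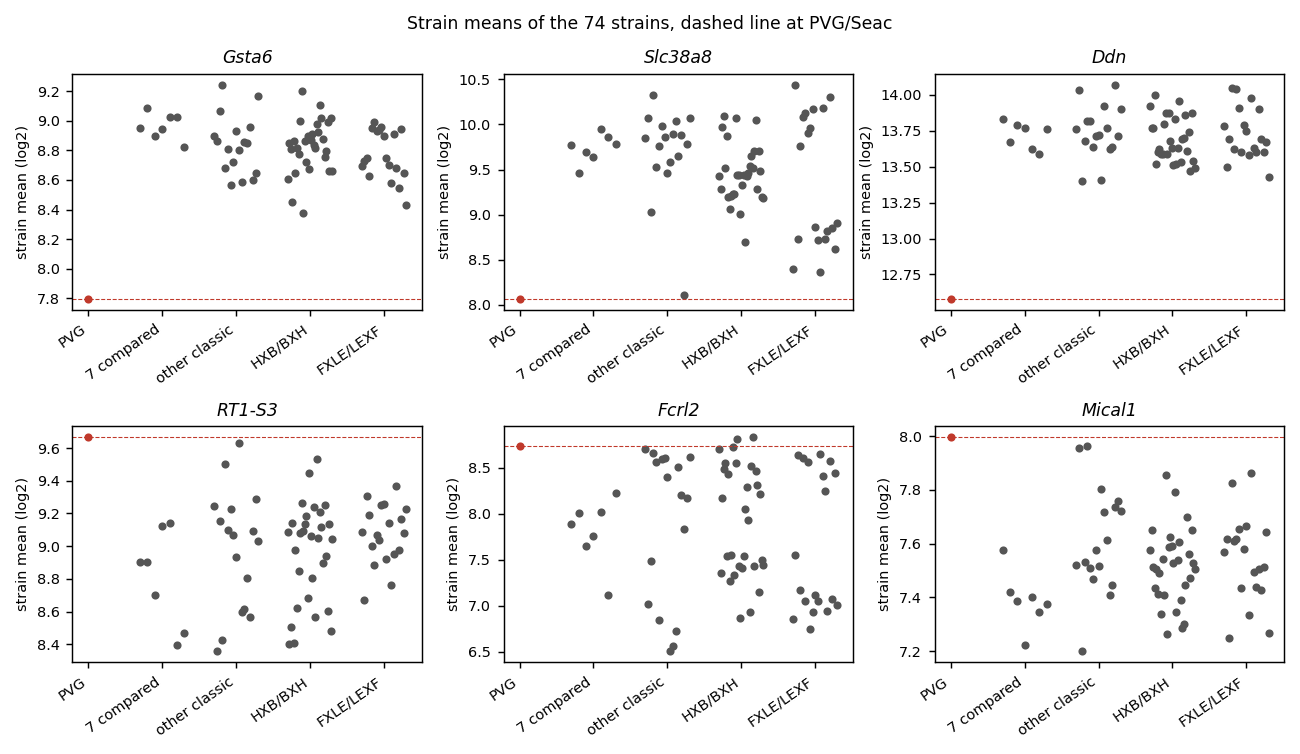
Strain means (log2) of Gsta6, Slc38a8, Ddn, RT1-S3, Fcrl2 and Mical1 for the 74 strains, 1 point per strain, grouped as PVG, the 7 compared strains, other classic strains and the HXB/BXH and FXLE/LEXF families. PVG stands apart at 7.80 for Gsta6 and 12.58 for Ddn, and lies inside the range of other strains for Fcrl2.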

How the data were processed

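Libraries labelled as whole brain were made by the authors with a stranded total RNA kit after rRNA depletion, and the submitters' processing notes list cutadapt 1.9.1, Bowtie2 2.3.4.3, HISAT2 2.1.0, StringTie 1.3.5, RSEM 1.3.1 and DESeq2. Values deposited by the authors are log2 expression levels per gene. The study describes, for an earlier release, a regularised log transformation and removal of unwanted variation. How version 7.1 was made and its genome build are not given in the sources used here. Repeat libraries of 1 animal were averaged, and 73 spike-in features were left out.

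Levels of 24 animals in 8 strains were fitted with limma 3.58.1 (R 4.3.3), 1 mean per strain, 16 residual and 4.37 prior degrees of freedom. PVG was tested against the mean of the other 7 strain means, two-sided, with Benjamini-Hochberg adjustment at 5%, after a test on simulated data. Tables were written with Python 3.11.15 and pandas 2.3.3. p-values measure the spread between separately labelled animals. The members and lists were chosen with earlier results of these data known.

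The naming rule took, in each direction, the 12 members with the largest gap among those with a settled symbol, a limma call, a mean above the table's median of 8.31 and no value over 30, up to 3 provisional symbols each way with the largest gap under the same conditions (3 below, none above), all list members lying outside, and Ciita, Gsta4, Ncf1, Vav1, Zeb1, C6 and Kit. Members outside it, such as Osmr, Mr1, F11r, Ptgr1, Lbp, Gsdmd, Cd68, Apobec1, Wnt10b, Gins2, Scml4, Mical1, Thsd1, Fcrl2, Srarp and the other provisional symbols, were named after their values were seen. Alternatives were batch as a covariate, a replicate block, other normalisations, filters, gene models and groupings, and leaving out each animal or strain. The version 6, reconstructed and transcript tables were each tested separately.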

Additional observations from a re-analysis of the deposited data

How the results depend on the processing

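The 235 higher and 334 lower genes, 569 in all, became 782 with batch as a covariate, 785 (334 higher, 451 lower) with a replicate block, 504 with the spread taken from all animals of the table, 444 without the lower quartile of genes, 522 with a variance trend, 534 after centring libraries on their medians, 557 after quantile normalisation and 540 in the reconstructed gene table. They became 26 and 35 with the other strains as 1 group, which counts strain differences as error, 147 and 197 in batch 17 alone, 15 and 17 in batch 16 alone, where 1 PVG animal is compared with 1 residual degree of freedom, and 135 and 209 in the version 6 Ensembl table, an alternative chosen after seeing the data. Leaving out 1 animal gave 97 to 294 higher and 128 to 389 lower genes. For the 148 genes lying outside, 19 had a gap above 0.2, 6 lay beyond all animals of the table, 225 lay outside without BN, 237 without WAG, 399 in the reconstructed table, which holds 21 of the 24 animals and more features, and 248 without the 5 animals nearer another strain, the last chosen after seeing the data. Leaving out 1 animal gave 151 to 514. With batch as a covariate the calls against single strains became 1167 for BN, 1239 for GK, 1669 for LH and 531 for WAG; the cause was not tested. Of the 41 passing genes taken by the naming rule or by a gap above 0.2, all 41 passed with the replicate block or the batch covariate, 27 with the other strains as 1 group, 19 in batch 17 and 5 in batch 16, with no sign turned within the RefSeq gene table. Of all 113 members that passed, 75 were found among version 6 Ensembl genes, where 61 passed in the same direction and 2, Adgrg5 and Apobec1, had the opposite sign. The 75 with reconstructed features included 13 with one that passed in the same direction, 16 with one of opposite sign and 3, Apobec1, Mical1 and Sh2b2, with no other. Among the 41, features of opposite sign were those of Mical1 (its one feature, -0.17), Pacsin2 (-0.22), Slc38a8 (0.33), Sipa1l2 (-0.058), LOC103691165 (0.056) and Pfkfb3 (-0.31, -0.20, -0.36 and -0.29 in 4 of 7 features). The cause was not tested. Whether equal replicate numbers pair these animals could not be settled from the values. Deviations from strain means correlated by 0.0609 on average between strains at the same number and by -0.0313 at different ones. Deviations cancel within each strain, which ties the latter mean to the former. Replicate number also follows sequencing batch in part. Genes that did not pass turned sign near 0: Zeb1 was at 0.13 in 1 reconstructed feature, Gsta4 was at -0.017 without GK, Vav1 at 0.030 in batch 16 and from -0.20 to 0.037 with 1 animal left out, and Kit at 0.015 with the batch covariate, 0.074 in batch 17, 0.0044 without BN and from -0.052 to 0.038 with 1 animal left out. Depth is unknown, so how far low levels limit a call could not be measured.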
